A study of Homo sapiens with 6 samples.

Results

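The genes described here are 10 receptor tyrosine kinases studied in melanoma: EGFR, AXL, TYRO3, PDGFRA, PDGFRB, MET, FGFR1, IGF1R, KIT and ROR1. They were chosen by name, with earlier results of these data known, and all 10 were found among the 63086 genes of the count table. The lists of related genes below were also chosen with those results known. The libraries come from A375, a human melanoma cell line with a constitutively active mutant BRAF, grown in medium with serum. There were 3 wild-type libraries, from cells kept without targeting, and 3 DUS1L knockout libraries, from cells edited at that locus by CRISPR/Cas9. The DUS1L enzyme reduces particular uridines of tRNA to dihydrouridine. The knockout cells went through clonal selection, and the sources used here do not give the number of clones, so the loss of DUS1L and differences that a clone already had cannot be told apart. The submitters describe the 3 libraries of each genotype as biological replicates, and p-values measure the spread between them.

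Receptor tyrosine kinases span the plasma membrane. In most of them, a ligand outside the cell brings a pair of receptor chains together, and the kinase domains inside phosphorylate each other. Adaptor proteins that bind the phosphorylated tyrosines then switch on the RAS-RAF-MEK-ERK and PI3K-AKT cascades. In BRAF-mutant melanoma the ERK cascade is driven from below the receptors, and high EGFR, AXL, PDGFRB, MET or IGF1R is known from cells that tolerate BRAF or MEK inhibitors. KIT belongs to the melanocyte lineage, and AXL is known as a mark of the dedifferentiated, invasive melanoma state, where the lineage factor MITF tends to be low.

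The libraries held between 17121315 and 18861514 estimated counts. DUS1L itself was at 79.95, 75.7 and 77.0 CPM (counts scaled to library size by the TMM method) in wild-type and at 55.4, 54.7 and 53.1 CPM in knockout libraries, so transcript was still present in the knockout cells. The melanocyte lineage factor SOX10 was present in all libraries, from 453.9 to 618.2 CPM, and MITF was at 18.97 to 21.8 CPM, whereas the pigment enzyme gene TYR had no count in any library. Leukocyte markers, with CD68 the most abundant, summed to between 24.5 and 25.4 CPM in the wild-type libraries and to between 26.3 and 35.8 CPM in the knockouts, while CD3E had no count in any library. Summed keratinocyte markers were at 54.5 to 59.9 and 51.8 to 61.2 CPM, most of it from KRT10, while KRT5 and KRT1 had no count in any library. Summed endothelial markers stayed between 2.76 and 6.51 CPM. Summed fibroblast markers ranged from 65.4 to 112.5 CPM in wild-type and from 87.3 to 141.8 CPM in knockout libraries, mostly from collagen genes. The part of these markers in the receptor results was not tested. Of the tested markers, 1 of 7 fibroblast genes (COL6A3) and 1 of 3 endothelial genes (TIE1) were lower in knockout cells (edgeR, adjusted p under 0.05). So were 3 of 6 melanocyte genes (ERBB3, SOX10 and S100B). The melanocyte genes MITF, PAX3 and TYRP1 were not called, at log2 fold changes of 0.07, 0.23 and 0.68 (adjusted p = 0.586, 0.0779 and 0.390, edgeR). LST1, 1 of 3 leukocyte genes, was higher, and none of 3 keratinocyte genes was called. Across all genes tested, 41.2% were called, 20.5% higher and 20.7% lower.

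Of the 10 receptor genes, 9 had enough counts to be tested. AXL and EGFR were higher in knockout cells, PDGFRB, FGFR1 and MET were lower, and TYRO3, IGF1R, PDGFRA and ROR1 were not called at an adjusted p under 0.05 (edgeR quasi-likelihood test, adjusted over all 16046 genes tested). KIT had almost no counts. Across all genes tested, 41.2% were called in either direction, 20.5% higher and 20.7% lower, and 5 of 9 receptors (55.6%) is not far from that share. The median log2 fold change of the 9 receptors was -0.16, against -0.0042 over all genes. The knockout and wild-type values did not overlap for 7 of the 9, and the same held for 51.1% of all genes. None of the 9 passed the test for a change larger than 1.5-fold, which 3.58% of all genes passed. In bulk RNA, fewer cells that express a receptor and less receptor RNA per cell cannot be told apart.

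The start regions of 4 of the 5 called receptors (all but FGFR1) are shown because they let a reader see what kind of promoter each gene has. Each is the stretch from 250 bases before to 50 bases after a transcription start in RefSeq (GRCh38.p14), written 5′ to 3′ on the gene's strand, with each GC box (GGGCGG or its reverse complement CCGCCC, the letters bound by SP and KLF factors) in capitals. The windows are chr7:55018767-55019066 on the plus strand for EGFR, chr19:41218973-41219272 on the plus strand for AXL, chr5:150155796-150156095 on the minus strand for PDGFRB and chr7:116671946-116672245 on the plus strand for MET.
EGFR: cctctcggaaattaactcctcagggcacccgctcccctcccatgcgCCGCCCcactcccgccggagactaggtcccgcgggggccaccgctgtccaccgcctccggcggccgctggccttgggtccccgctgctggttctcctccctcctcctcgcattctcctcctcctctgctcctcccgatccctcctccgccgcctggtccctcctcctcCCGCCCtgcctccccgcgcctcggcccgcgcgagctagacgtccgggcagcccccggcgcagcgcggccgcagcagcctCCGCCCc
AXL: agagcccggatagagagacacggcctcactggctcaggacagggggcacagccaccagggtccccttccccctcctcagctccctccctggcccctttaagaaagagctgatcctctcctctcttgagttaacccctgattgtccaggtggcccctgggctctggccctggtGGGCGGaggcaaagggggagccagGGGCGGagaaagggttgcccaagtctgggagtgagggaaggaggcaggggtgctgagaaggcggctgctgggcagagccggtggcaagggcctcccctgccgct
PDGFRB: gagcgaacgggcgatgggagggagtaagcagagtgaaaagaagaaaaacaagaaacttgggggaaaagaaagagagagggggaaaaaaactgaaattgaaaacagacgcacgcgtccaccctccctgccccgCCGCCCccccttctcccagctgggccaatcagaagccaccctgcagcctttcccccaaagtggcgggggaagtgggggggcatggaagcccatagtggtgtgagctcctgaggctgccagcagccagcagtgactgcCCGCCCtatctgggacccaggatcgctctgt
MET: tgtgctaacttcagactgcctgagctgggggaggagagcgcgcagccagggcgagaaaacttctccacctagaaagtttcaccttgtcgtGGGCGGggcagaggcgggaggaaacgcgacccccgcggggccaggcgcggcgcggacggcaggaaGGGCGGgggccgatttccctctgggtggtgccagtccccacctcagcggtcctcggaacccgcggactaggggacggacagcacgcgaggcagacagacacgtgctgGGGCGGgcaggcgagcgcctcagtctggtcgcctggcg
There were 3 GC boxes in the EGFR and MET windows and 2 in the AXL and PDGFRB windows. Over the 35116 promoters of this length in the table, 45.0% held a GC box, and of the 9 receptors with an entry 7 did in the window nearest the annotated start. Base composition differed more, with 75.3% G or C and 33 CpG pairs in the EGFR window, 69.3% and 30 in MET, 66.0% and 7 in AXL, and 59.3% and 11 in PDGFRB. The median promoter had 58.7% G or C and 14 CpG pairs. None of the 4 windows shown held TATAAA (in 11.5% of all promoters), the AP-1 site TGANTCA (7.71%), the TEAD core GGAATG (14.0%) or the ETS core CCGGAA (17.2%), each searched on both strands, and MET had 1 CACGTG E-box (7.26%), which overlaps no GC box. EGFR and AXL each have a further start in the table, farther from the annotated gene start, and those windows are not shown. The further EGFR window held 2 AP-1 sites, 2 TATAAA and 1 TEAD core, and the further AXL window 1 TEAD core and 1 ETS core, and neither held a GC box. These are matches of letters and not measured sites.

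**Figure D1:**
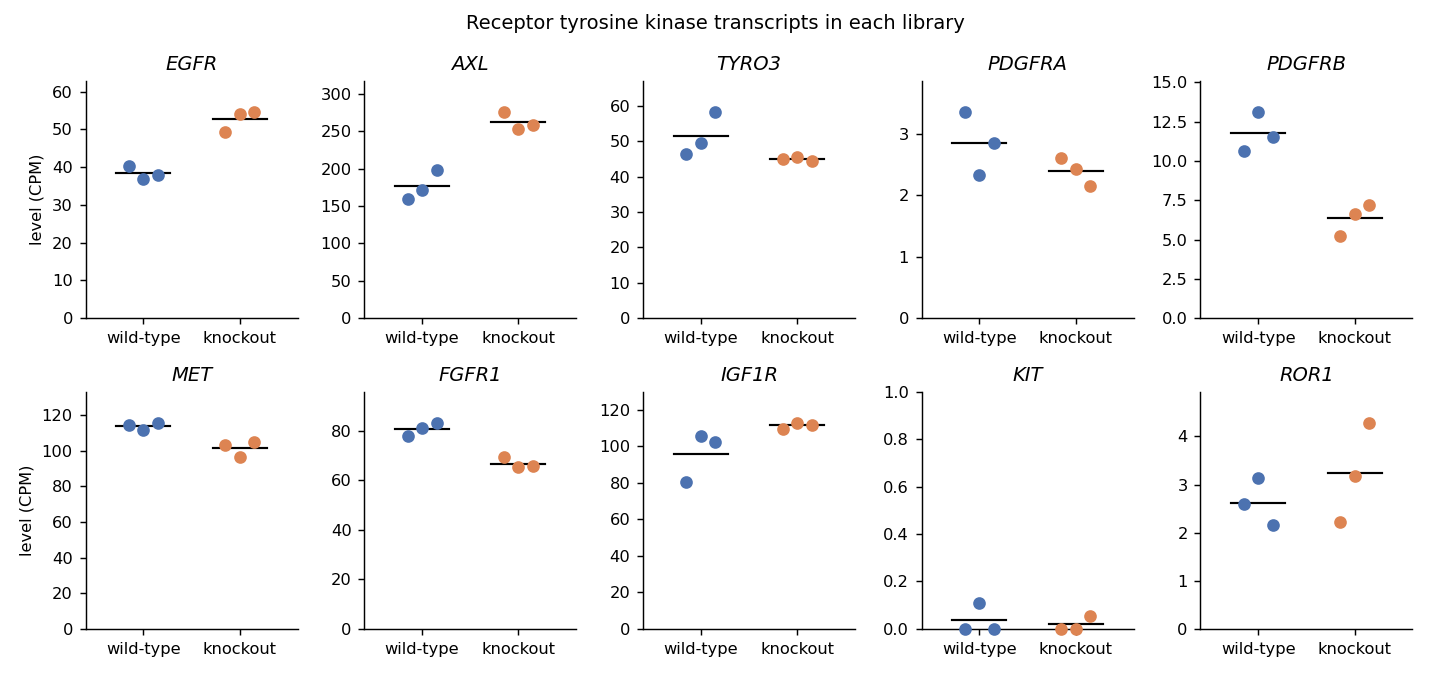
Level of each receptor transcript in CPM (vertical axes, each from 0) in the 3 wild-type (blue) and 3 knockout (orange) libraries, with the mean of each group as a line. The knockout points of EGFR, AXL and IGF1R lie above, and those of PDGFRB, MET, FGFR1 and TYRO3 below, all wild-type points. IGF1R and TYRO3 were not called.

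AXL and TYRO3 belong to the TAM family, whose ligands GAS6 and PROS1 bridge the receptor to phosphatidylserine on dying cells. AXL (ENSG00000167601.12, chromosome 19, 41219223 to 41261766, plus strand, GRCh38) was at 159.0, 171.1 and 197.9 CPM in wild-type and at 275.6, 253.0 and 258.7 CPM in knockout libraries. The groups did not overlap, although wild-type replicate 3 was above the other wild-type libraries. AXL rose 1.49-fold (log2 fold change 0.58, SE 0.07, adjusted p = 4.14e-06, edgeR). TYRO3 (ENSG00000092445.12, chromosome 15, 41557675 to 41583589, plus strand) was at 46.6, 49.5 and 58.3 CPM in wild-type and at 45.2, 45.6 and 44.5 CPM in knockout libraries. Its groups did not overlap either, but wild-type replicate 1 was close to the knockout libraries, and the log2 fold change of -0.19 (SE 0.08) was not called (adjusted p = 0.0629, edgeR). Its value rested on wild-type replicate 3, without which it was -0.09 (adjusted p = 0.392), while without wild-type replicate 1 it was -0.26 and called (adjusted p = 0.0106). The processed pseudogene TYRO3P drew at most 6 counts in a library. Per kilobase of annotated exon, AXL stood 7.16, 7.25 and 7.12 times above TYRO3 in the wild-type libraries. In the knockout libraries it stood 12.8, 11.6 and 12.2 times above TYRO3, a description that has no test of its own. The size of these ratios depends on the lengths used. With canonical transcript lengths, AXL and TYRO3 were at 37.3 and 6.41 CPM per kilobase in wild-type and at 55.6 and 5.61 in knockout cells.

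EGFR, the receptor for EGF and related growth factors, lies on chromosome 7 from 55019017 to 55211628 on the plus strand (ENSG00000146648.21). It was at 40.4, 36.8 and 37.9 CPM in wild-type and at 49.4, 54.1 and 54.6 CPM in knockout libraries. All knockout values were above all wild-type values, and EGFR rose 1.37-fold (log2 fold change 0.46, SE 0.07, adjusted p = 4.39e-05, edgeR). The antisense gene EGFR-AS1 had 1 count in all libraries together. As the strand setting of the counting was not given, reads in a stretch shared with EGFR cannot be assigned to either gene.

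PDGFRB and PDGFRA are the receptors for platelet-derived growth factors, best known from mesenchymal cells, and KIT, the stem cell factor receptor, is their relative. PDGFRB (ENSG00000113721.14, chromosome 5, 150113839 to 150155872, minus strand) was at 10.6, 13.1 and 11.5 CPM in wild-type and at 5.21, 6.65 and 7.22 CPM in knockout libraries. The groups were well apart, and PDGFRB had the lowest fold change of the receptors tested. It fell 1.85-fold (log2 fold change -0.89, SE 0.15, adjusted p = 8.11e-05, edgeR), with an adjusted p of 0.142 against 1.5-fold. Its counts were between 98 and 242 per library, and leaving out any library gave log2 fold changes between -0.99 and -0.76. PDGFRA (ENSG00000134853.12, chromosome 4, 54229280 to 54298245, plus strand) was low, at 3.35, 2.33 and 2.85 CPM in wild-type and at 2.60, 2.43 and 2.14 CPM in knockout libraries. These groups overlapped, and with 38 to 57 counts per library the log2 fold change of -0.25 had an SE of 0.26 (adjusted p = 0.477, edgeR). It was -0.11 without wild-type replicate 1 and -0.38 without wild-type replicate 2, neither called (adjusted p = 0.799 and 0.332). The error was as large as the difference itself, so PDGFRA could not be read as changed or as unchanged in these libraries. KIT (ENSG00000157404.17, chromosome 4, 54657267 to 54740783, plus strand) had 2 counts in wild-type replicate 2, 1 count in knockout replicate 3 and none in the other libraries. A count of 3 corresponds to 0.159 to 0.176 CPM, so KIT was under the level that could be read in both genotypes and no fold is given.

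MET, the receptor for hepatocyte growth factor, lies on chromosome 7 from 116672196 to 116798377 on the plus strand (ENSG00000105976.16). It was at 114.0, 111.3 and 115.6 CPM in wild-type and at 103.0, 96.4 and 104.8 CPM in knockout libraries. The groups were apart by a small margin, and MET fell 1.12-fold (log2 fold change -0.16, SE 0.06, adjusted p = 0.0259, edgeR). MET was no longer called in fits that left out wild-type replicate 3 (adjusted p = 0.0772), knockout replicate 1 (adjusted p = 0.0513) or knockout replicate 2 (adjusted p = 0.119), nor with library size alone as the scaling (log2 fold change -0.12, adjusted p = 0.107).

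FGFR1, a receptor for fibroblast growth factors, lies on chromosome 8 from 38400215 to 38468834 on the minus strand (ENSG00000077782.23). It was at 78.1, 81.2 and 83.3 CPM in wild-type and at 69.2, 65.3 and 65.8 CPM in knockout libraries. The groups did not overlap, and FGFR1 fell 1.21-fold (log2 fold change -0.28, SE 0.06, adjusted p = 0.00113, edgeR). Its span overlaps LETM2 on the opposite strand, which had 98 to 129 counts in wild-type and 141 to 163 counts in knockout libraries, against at least 1130 counts of FGFR1. The strand setting of the counting was not given in the sources used here, so reads in any shared stretch cannot be assigned.

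IGF1R, the receptor for insulin-like growth factors, lies on chromosome 15 from 98648539 to 98964530 on the plus strand (ENSG00000140443.15). It was at 80.4, 105.6 and 102.3 CPM in wild-type and at 109.6, 113.0 and 112.0 CPM in knockout libraries. Every knockout value was above every wild-type value, with wild-type replicate 1 far below the rest. The log2 fold change of 0.21 (SE 0.08) missed the threshold narrowly (adjusted p = 0.0519, edgeR), and 9 of 14 alternative settings called it, with log2 fold changes up to 0.28. DESeq2 gave an adjusted p of 0.0334, limma-voom 0.0428 and the fit with replicate number as a block 0.0208. Without wild-type replicate 1 it shrank to 0.10 (adjusted p = 0.152). That library also stood apart over all genes, at 31.6 on the second principal component (13.7% of the variance), where the other 5 libraries lay between -16.3 and 9.23.

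ROR1, a receptor for WNT5A with little kinase activity of its own, lies on chromosome 1 from 63774017 to 64181498 on the plus strand (ENSG00000185483.13). It was at 2.59, 3.14 and 2.15 CPM in wild-type and at 2.23, 3.18 and 4.29 CPM in knockout libraries. The groups overlapped, and the log2 fold change of 0.29 (SE 0.27) was not called (adjusted p = 0.417, edgeR). It was 0.03 without knockout replicate 3, 0.17 without wild-type replicate 3, 0.44 without wild-type replicate 2 and 0.50 without knockout replicate 1, and none of these was called (adjusted p from 0.173 to 0.945). With 37 to 76 counts per library, its spread between replicates was the widest of the 9 tested receptors, with a biological coefficient of variation fitted by edgeR of 20.6%, against 4.90% for MET.

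**Figure D2:**
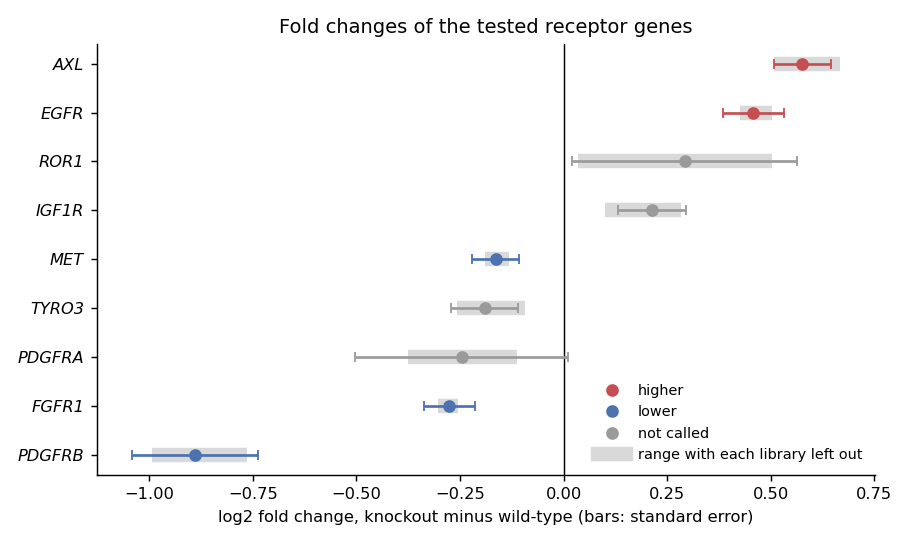
Log2 fold change of knockout against wild-type (horizontal axis) for the 9 receptors tested, with standard errors as thin bars and the range over fits that each leave out 1 of the 6 libraries in grey. AXL (0.58) and EGFR (0.46) lie above 0 and PDGFRB (-0.89), FGFR1 (-0.28) and MET (-0.16) below it.

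Levels of different receptors were compared per kilobase of exon, with the length taken over all annotated exons of a gene. AXL led in wild-type cells at 34.3 ± 3.9 CPM per kilobase (SD, n = 3), followed by MET at 15.7 ± 0.3 and IGF1R at 6.89 ± 0.98 CPM per kilobase. TYRO3 and FGFR1 came next at 4.78 ± 0.57 and 4.70 ± 0.15 CPM per kilobase, and their ranges overlapped. EGFR was at 2.41 ± 0.12, PDGFRB at 1.65 ± 0.18, ROR1 at 0.391 ± 0.074 and PDGFRA at 0.298 ± 0.053 CPM per kilobase, and the ranges of the last pair overlapped. In knockout cells the order was unchanged, with AXL at 51.1 ± 2.3, MET at 14.0 ± 0.6 and EGFR, closer now to FGFR1, at 3.31 ± 0.18 against 3.88 ± 0.12 CPM per kilobase. With these lengths, no neighbouring pair overlapped in knockout cells. The place of FGFR1 depends on the length used. Its annotated exons sum to 17201 bases and its canonical transcript to 5697 bases, and with canonical lengths, an alternative chosen after seeing the data, FGFR1 came just after MET, at 14.2 ± 0.5 CPM per kilobase in wild-type and 11.7 ± 0.4 in knockout cells. With canonical lengths the knockout ranges of ROR1 (0.381 to 0.732) and PDGFRA (0.336 to 0.408) overlapped. Knockout EGFR was then at 5.32 CPM per kilobase, next to TYRO3 at 5.61 and well under FGFR1. Summed over the 10 receptors with all annotated exons, the level per kilobase was 71.1 ± 5.3 in wild-type and 86.2 ± 2.3 in knockout cells. AXL made up 46.8%, 47.3% and 50.2% of that sum in the wild-type libraries and 60.7%, 58.8% and 58.5% in the knockout libraries, while the share of MET went from 22.2% ± 1.5 to 16.3% ± 0.5. These shares are descriptions, and a share of a sum moves with every other member of the sum.

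**Figure D3:**
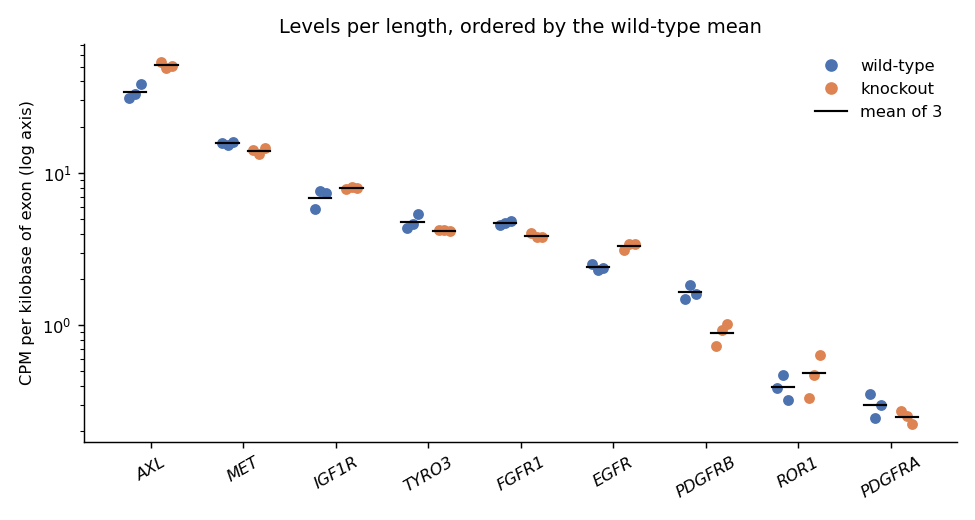
Level per kilobase of exon (vertical log axis, CPM per kilobase) of 9 receptors in each wild-type (blue) and knockout (orange) library, ordered by the wild-type mean, with means as lines. KIT, with 3 counts in all, is not drawn. AXL is highest in every library and PDGFRA has the lowest mean in both genotypes.

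Of 25 genes for ligands of these receptors, 17 were tested, 7 were higher, 3 were lower and 7 were not called. The called share was 58.8%, against 41.2% of all genes tested (20.5% higher and 20.7% lower). The median log2 fold change of the 17 was 0.50, against -0.0042 over all genes. Among the EGFR ligands, TGFA, transforming growth factor alpha, rose from 133.6 ± 2.8 to 195.9 ± 12.1 CPM and HBEGF from 9.35 ± 0.26 to 21.8 ± 1.6 CPM. HBEGF, heparin-binding EGF, had a log2 fold change of 1.22 (SE 0.11, adjusted p = 3.56e-08, edgeR) and also passed the test against 1.5-fold (adjusted p = 0.000118). AREG, EGF and BTC were under 5 CPM in every library and were not called (adjusted p = 0.161, 0.491 and 0.548).

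The TAM ligands went in opposite directions. GAS6, which binds AXL with the highest affinity of the family, rose from 20.7 ± 1.1 to 30.6 ± 2.8 CPM (adjusted p = 6.45e-05, edgeR). PROS1, protein S, a ligand of TYRO3, fell from 28.96 ± 0.62 to 21.97 ± 1.30 CPM (adjusted p = 0.00106, edgeR).

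The PDGF ligand genes divided. PDGFA rose from 18.2 ± 1.5 to 25.9 ± 2.6 CPM (log2 fold change 0.51, adjusted p = 0.000443, edgeR). PDGFB rose from 2.33 ± 0.21 to 3.78 ± 0.61 CPM (log2 fold change 0.69, adjusted p = 0.0254), a call lost without wild-type replicate 2 or 3 or knockout replicate 2 or 3 (adjusted p from 0.0516 to 0.11). PDGFD, a ligand of PDGFRB, was at 9.17 ± 1.24 and 7.05 ± 0.40 CPM, and its call (log2 fold change -0.38, adjusted p = 0.0489) was lost under 12 of 14 alternatives, among them DESeq2 (adjusted p = 0.0957), limma-voom (adjusted p = 0.0613), the replicate block (adjusted p = 0.0679), both other scalings (adjusted p = 0.0512 and 0.0825) and no count filter (adjusted p = 0.0618). It was also lost without any library other than wild-type replicate 3 (adjusted p from 0.0688 to 0.207). PDGFC was at 15.4 ± 0.3 and 14.3 ± 2.2 CPM (adjusted p = 0.502).

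Of the FGFR1 ligands, FGF2, basic fibroblast growth factor, was at 80.2 ± 11.3 CPM in wild-type and rose to 141.9 ± 5.5 CPM in knockout cells (log2 fold change 0.82, SE 0.08, adjusted p = 1.61e-06, edgeR) and passed the test against 1.5-fold (adjusted p = 0.0346). FGF1 and FGF5 stayed under 1.5 CPM and were not called (adjusted p = 0.151 and 0.118), and FGF5 was called in the fit that left out wild-type replicate 1, at a log2 fold change of 2.71 (adjusted p = 0.014). IGF2, a ligand of IGF1R, rose from 3.84 ± 0.19 to 6.66 ± 0.82 CPM (adjusted p = 0.00159), while IGF1 had at most 1 count in a library. KITLG, the ligand of KIT, was at 3.54 ± 0.40 and 5.00 ± 0.84 CPM and was not called (adjusted p = 0.0583). KITLG passed when wild-type replicate 1 (adjusted p = 0.0488) or knockout replicate 3 (adjusted p = 0.0388) was left out, and with library size alone (adjusted p = 0.0398). HGF, the ligand of MET, had between 0 and 3 counts per library, so no HGF transcript could be read in either genotype. WNT5A, the ligand of ROR1, was at 86.7 ± 5.0 CPM in wild-type and fell to 57.9 ± 2.9 CPM in knockout cells (log2 fold change -0.58, SE 0.07, adjusted p = 6.54e-07).

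**Figure D4:**
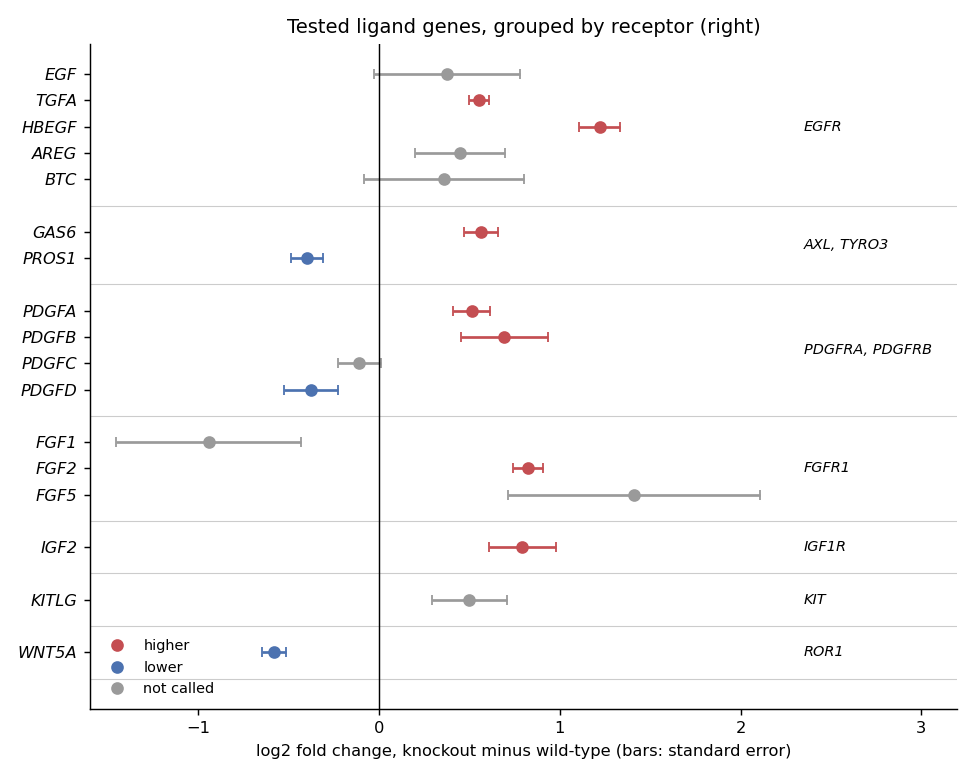
Log2 fold change of knockout against wild-type (horizontal axis, bars are standard errors) for the 17 ligand genes tested, grouped by the receptor named at the right. HBEGF (1.22) and FGF2 (0.82) are the called ligands farthest above 0, and WNT5A (-0.58) is the called ligand farthest below it.

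Among the other 48 receptor tyrosine kinase genes, 30 were tested, 5 were higher and 11 were lower, together 53.3% against 41.2% of all genes, with a median log2 fold change of -0.17, next to -0.16 for the 9 described here. EPHA2, an ephrin receptor, was the one with the highest level per kilobase in wild-type cells, at 37.1 ± 2.0 against 34.3 ± 3.9 for AXL. The wild-type ranges of EPHA2 (34.9 to 38.9) and AXL (31.0 to 38.5) overlapped. In knockout cells they did not, with EPHA2 at 76.8 (75.4 to 78.3) and AXL at 51.1 (49.3 to 53.7). All these levels use the length over all annotated exons. EPHA2 rose from 153.5 ± 8.5 to 318.2 ± 5.9 CPM (log2 fold change 1.05, adjusted p = 9.99e-12, edgeR). ERBB3, the neuregulin receptor of the EGFR family, fell from 112.9 ± 4.5 to 62.3 ± 1.3 CPM, FLT1, a VEGF receptor, fell by 1.08 on the log2 scale, and EPHA3 fell by 0.84. Each of these 4 passed the test against 1.5-fold, which none of the 9 receptors above did. DDR2, a collagen receptor, and EPHB4 followed EPHA2 in level per kilobase, and DDR2, with a log2 fold change of 0.02, was not called (adjusted p = 0.814). EPHB4 fell by 0.24 (adjusted p = 0.00631), a call lost without knockout replicate 1 (adjusted p = 0.0507).

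Genes that relay or limit receptor signals were called in both directions. Of 19 adaptor genes, 6 were higher and 2 were lower (median log2 fold change 0.09), and that share of 42.1% is near the 41.2% of all genes. The insulin receptor substrates, which dock to IGF1R, divided: IRS2 rose from 154.1 ± 14.1 to 232.9 ± 4.9 CPM and IRS1 fell from 32.5 ± 2.3 to 20.9 ± 3.2 CPM. FRS2, the docking protein of FGFR1, rose by 0.67 and CRK, an SH2 adaptor, by 0.49 on the log2 scale. Of 20 genes for negative regulators, degradation and shedding, 4 were higher and 8 were lower, together 60.0% (median -0.01). TIMP3, an inhibitor of the sheddases that cut receptors and their ligands from the membrane, was at 632.5 ± 39.9 CPM in wild-type and fell to 374.9 ± 32.5 CPM (log2 fold change -0.75, adjusted p = 2.69e-08, edgeR). NEDD4, a ubiquitin ligase, rose by 0.57, SH3KBP1, a partner of the ubiquitin ligase CBL, fell by 0.38 and the feedback inhibitor SOCS3 fell by 0.55 on the log2 scale.

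In the RAS-RAF-MEK-ERK core below the receptors, 3 of 14 genes were higher and 2 were lower (median 0.07). That called share of 35.7% is near the 41.2% of all genes. BRAF rose from 38.3 ± 0.8 to 53.5 ± 3.4 CPM and the scaffold KSR1 from 10.3 ± 1.1 to 17.2 ± 0.9 CPM, MAPK3 (ERK1) fell from 60.1 ± 4.1 to 43.3 ± 1.5 CPM, and MAP2K2 (MEK2) rose by 0.17 on the log2 scale. The MAP2K2 call (adjusted p = 0.0295, edgeR) was lost without wild-type replicate 1 or 2, without knockout replicate 1 or 3 and without the count filter (adjusted p from 0.056 to 0.147). In the PI3K-AKT core 5 of 15 were higher and 4 were lower, together 60.0% (median 0.09), with PIK3CD and PDPK1 up by 0.54 and 0.28, and PIK3R2 and AKT1 at log2 fold changes of -0.35 and -0.20. Genes known as ERK outputs divided as well, with 6 of 18 higher and 8 lower (median -0.07), a called share of 77.8% against 41.2% of all genes. The early genes EGR1 and DUSP5 rose by 1.03 and 0.94, whereas the ETS factor genes ETV1 and ETV4 fell by 0.81 and 0.76 on the log2 scale, and all 4 passed the test against 1.5-fold.

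**Figure D5:**
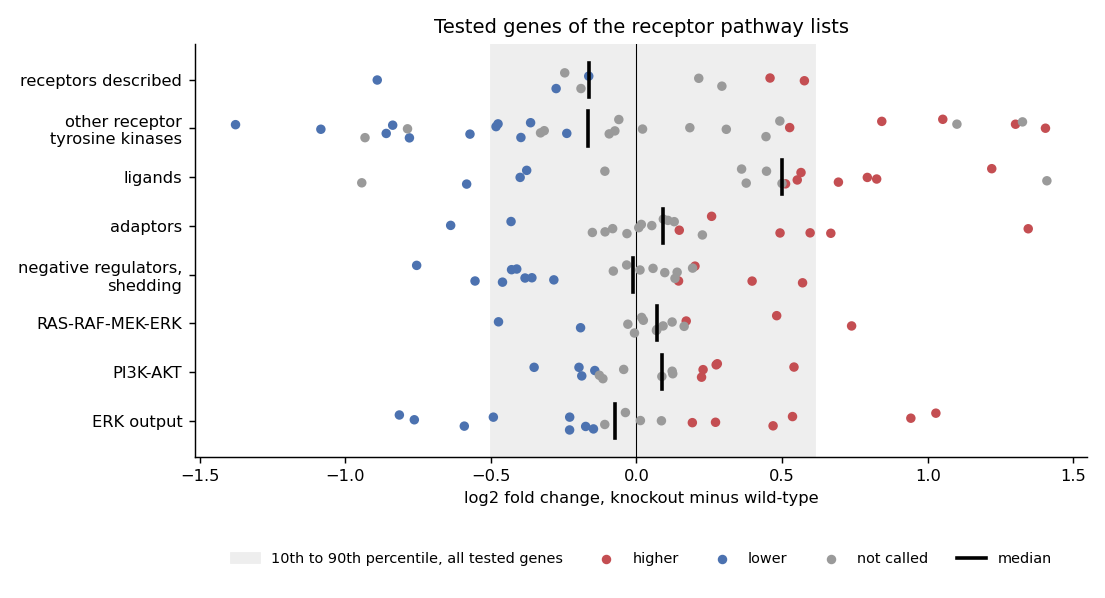
Log2 fold change (horizontal axis) of every tested gene in the receptor list and 7 lists of the pathway, one point per gene with vertical scatter for legibility, coloured by call, with the median of each list as a black bar. The grey band, from -0.50 to 0.61, holds the 10th to the 90th percentile of all genes tested. The ligand list has the highest median (0.50), and PDGFRB is the one receptor of the 9 outside the band.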

How the data were processed

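Gene-level estimated counts of the 6 libraries were deposited as 1 table, with no normalization recorded. Per the submitters' processing notes the build was GRCh38 (hg38). The aligner, counter, strand setting and annotation are not given in the sources used here. Of 63086 genes, 62541 matched GENCODE 44 by identifier without version, which supplied symbols, coordinates and exon lengths. Estimated counts were rounded, filtered with filterByExpr (minimum count 10), scaled by TMM and tested with edgeR 4.0.16 (R 4.3.3) by a two-sided robust quasi-likelihood fit on genotype, with Benjamini-Hochberg adjustment over 16046 genes, and against 1.5-fold with glmTreat. Standard errors came from the fold change and its F statistic. The procedure was tested on simulated data. Alternatives used DESeq2 1.42.0, limma 3.58.1 (voom), other scalings, no filter, a replicate block and each library left out. No library pair matched within sampling noise (chi-square per degree of freedom 3.72 to 7.13 within groups). Members and lists were chosen with earlier results of these data known. Named were all members, all tested ligands, the 4 called genes with the smallest p of each pathway list, and the 3 other receptors with the highest level per kilobase. The keratinocyte marker LOR was unmatched. Promoter sequences are from RefSeq (GRCh38.p14). Of the 10 receptors, FGFR1 had no entry. A floor of 3 counts covers counting error only.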

Additional observations from a re-analysis of the deposited data

How the results depend on the processing

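Apart from the test against 1.5-fold, which called 371 genes higher and 204 lower and 0 and 0 of the receptors, each alternative kept the counts of genes and receptors called within 1.5 times. With each library left out in turn, 2669 to 3330 genes were called higher and 2700 to 3307 lower, and 2 to 3 receptors higher and 2 to 4 lower. Of 117 values for the 9 receptors under these other alternatives, 102 kept their direction and side of the threshold, 4 lost a call (all MET), 11 gained one (IGF1R and TYRO3) and 0 changed sign. TYRO3 was also called without the count filter (log2 fold change -0.20, adjusted p = 0.0384). AXL, EGFR, PDGFRB and FGFR1 stayed called in every one of those fits. Among the other named genes, DDR2 and EGF, neither called, changed sign, DDR2 without wild-type replicate 2 (-0.0275) or knockout replicate 3 and EGF without knockout replicate 1. Over the fits without a library, DDR2 ranged from -0.0313 to 0.0788 and EGF from -0.0607 to 0.6797. With canonical transcript lengths, chosen after seeing the data, AXL made up 41.7% of the summed level per kilobase in wild-type and 53.3% in knockout cells, against 48.1% and 59.3%. Same-numbered libraries did not deviate together over the genes tested (correlations from -0.03 to 0.03). Such correlations cannot exclude a pairing that touches only some genes. With replicate number as a block, 3 receptors were called higher and 3 lower, IGF1R being the added one (log2 fold change 0.22, adjusted p = 0.0208). PDGFRA and ROR1 had few counts and a wide spread between replicates (fitted biological coefficients of variation of 18.3% and 20.6%). KIT was under the level that could be read.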
